A study of Mus musculus with 28 samples.

Results

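The shape and position of 2 histone marks, trimethylation of lysine 4 on histone H3 (H3K4me3) and acetylation of lysine 27 on histone H3 (H3K27ac), were compared in mouse lung tumours. The comparison used 8 of the 28 samples of the series, 4 H3K4me3 and 4 H3K27ac libraries, chosen by the mark in the sample titles. In all, 24 samples had a list of called peaks. Peaks on chromosomes 1 to 19 were joined into 1 region wherever the gap between them was at most 1 kb. This gave 50591 H3K4me3 regions and 118322 H3K27ac regions, summed over the 4 lists of each mark.

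The assay was ChIP-seq: DNA wrapped around histones with a given modification is pulled down with an antibody and sequenced. Per the labels, all mice carried K-RasLSL-G12D, a mutant K-Ras allele silent until Cre recombinase removes a stop cassette, and all received Ad-CMV-Cre, an adenovirus that expresses Cre from the CMV promoter. That promoter is not restricted to one cell type. A second tumour type of the series also carried Mll4fl/fl, floxed alleles of a gene for a histone H3 lysine 4 methyltransferase. Ages, and whether the libraries of a mark came from separate animals, are not given in the labels, so p-values measure only the spread between these samples.

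The labels leave the tumour type of each library unnamed. The deposited lists of replicates 1 and 2 carry the tag MLL in their names, and those of replicates 3 and 4 carry the tag RAS. Values are therefore given per list with that tag, and the tags were not tested as genotypes. A test of 2 lists against 2 could not go below an exact permutation p of 0.333.

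H3K4me3 is placed by SET1 and MLL family enzymes around active and poised transcription start sites, mostly at CpG-rich promoters, where it forms compact domains. H3K27ac is placed by the acetyltransferases p300 and CBP on nucleosomes at both active promoters and active enhancers. Promoters with both marks commonly have them on the nucleosomes that flank the start site, and enhancers commonly pair H3K27ac with H3K4me1 in place of H3K4me3. H3K79me2 marks the first part of transcribed genes, and H3K27me3 and H3K9me3 mark Polycomb-repressed chromatin and heterochromatin.

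The lists of a mark were unevenly alike. The H3K4me3 list of replicate 1 had a Jaccard index (shared bases over bases in either list) of 0.0726 to 0.0843 with the other H3K4me3 lists. Among replicates 2, 3 and 4 the index was 0.684 to 0.705. Replicate 1 covered 3.97 Mb against 28.4 to 32.5 Mb, which keeps its index low even where most of its bases are shared. Among the H3K27ac lists the highest index was 0.627, between replicates 3 and 4. Replicate 2 had indices of 0.0758 to 0.102 with its own mark, and 78.3% of its regions without H3K4me3 held an H3K79me2 peak, against 25.5% to 37.5% in the other replicates. The H3K79me2 list of replicate 2 also met 33.3% of H3K4me3 regions without H3K27ac, against 5.09% to 27.7% in the other replicates. On H3K27ac regions with H3K4me3 its share was 77.2%, below 83.6% in replicate 1. The cause was not tested. The label of the H3K27ac library of replicate 2 is left in doubt, and every replicate 2 value below is that of the library labelled H3K27ac. H3K27ac replicate 1 had indices of 0.102, 0.159 and 0.156 with replicates 2, 3 and 4. H3K27ac replicates 1 and 2 covered 29.0 and 38.0 Mb, against 117.4 and 116.3 Mb in replicates 3 and 4. Unequal size alone lowers their indices with replicates 3 and 4, so a low index does not give the share of the smaller list. Results are also given without H3K4me3 replicate 1 and H3K27ac replicate 2. For number, length, coverage and spacing, those values keep 3 lists of each mark, H3K27ac replicate 1 included. For results that set both marks of 1 replicate number against each other, they drop numbers 1 and 2, and only replicates 3 and 4, both tagged RAS, are left. The lists hold no read counts, so sequencing depth is unknown and no counting interval can be given.

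The joined lists held more H3K27ac regions than H3K4me3 regions, and H3K27ac regions lay closer together. The H3K4me3 lists of replicates 1 to 4 had 7746, 13943, 15151 and 13751 regions, a mean of 12648 ± 3326 (SD, n = 4). The H3K27ac lists had 29069, 27504, 31197 and 30552 regions, a mean of 29581 ± 1646 (SD, n = 4). Every H3K27ac list was larger than every H3K4me3 list, in 16 of 16 pairs, and the ranges did not overlap. The ratio of geometric means was 2.41-fold (log2 difference, H3K4me3 minus H3K27ac, -1.27). The exact two-sided permutation p was 0.0286, the smallest that 4 lists against 4 can give, and 0.0571 after Benjamini-Hochberg adjustment over the 4 shape tests, so the difference did not pass 0.05. When each list was reduced to its 10429 best-scored peaks, which sets the numbers of peaks equal, the log2 difference was 0.22, with the sign turned. The ranges also overlapped at a score of at least 100, where H3K27ac replicates 1 and 2 had 11767 and 11283 regions and H3K4me3 replicates 2, 3 and 4 had 12391, 13213 and 12167 (exact permutation p 0.286). With gaps of up to 3 kb closed, H3K27ac replicate 2, at 14312, lay below H3K4me3 replicate 3, at 14392. Without H3K4me3 replicate 1 and H3K27ac replicate 2 it was -1.08.

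Joining acted unevenly on the lists. A region held 1.35, 1.03, 1.93 and 1.14 peaks on average in the H3K4me3 lists of replicates 1 to 4, and 2.10, 2.90, 1.27 and 1.40 in the H3K27ac lists. Closed gaps made up 31.4% and 41.8% of the covered bases in H3K27ac replicates 1 and 2, against 2.45% and 3.40% in replicates 3 and 4. The H3K27ac lists tagged MLL were thus the fragmented ones. The H3K4me3 lists split differently, with closed gaps at 21.3% in replicate 1, 0.465% in replicate 2, 6.94% in replicate 3 and 1.53% in replicate 4.

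The gap from one region to the next on the same chromosome was wider for H3K4me3. Its median was 126235, 52859.5, 46203.5 and 50344 bp in replicates 1 to 4, against 10234.5, 3227, 12868 and 12458 bp for H3K27ac. The ranges did not overlap in 16 of 16 pairs, with a 7.36-fold ratio (log2 difference 2.88, exact permutation p 0.0286, adjusted 0.0571). More regions on the same chromosomes leave shorter gaps, so this value is not independent of region number. It was 1.31 with means in place of medians and 1.46 with the 10429 best-scored peaks, with every H3K4me3 list still above every H3K27ac list. With no gaps closed the ranges did overlap, at 58151, 49967, 2211 and 38962 bp for H3K4me3 and 849, 501, 7430 and 5287 bp for H3K27ac. Without H3K4me3 replicate 1 and H3K27ac replicate 2 the log2 difference was 2.08.

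After joining, closely spaced regions were more frequent in the H3K27ac lists. Gaps under 5 kb made up 36.4%, 59.7%, 27.5% and 29.0% of all gaps in H3K27ac replicates 1 to 4, and 9.93%, 5.98%, 8.51% and 7.47% in the H3K4me3 lists. All 4 H3K27ac lists thus had a larger share of such gaps than any H3K4me3 list. Before joining this did not hold, since the median gap of H3K4me3 replicate 3 was under 5 kb and those of H3K27ac replicates 3 and 4 were over it. The H3K27ac list of replicate 2 was the most clustered of the 8.

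**Figure D1:**
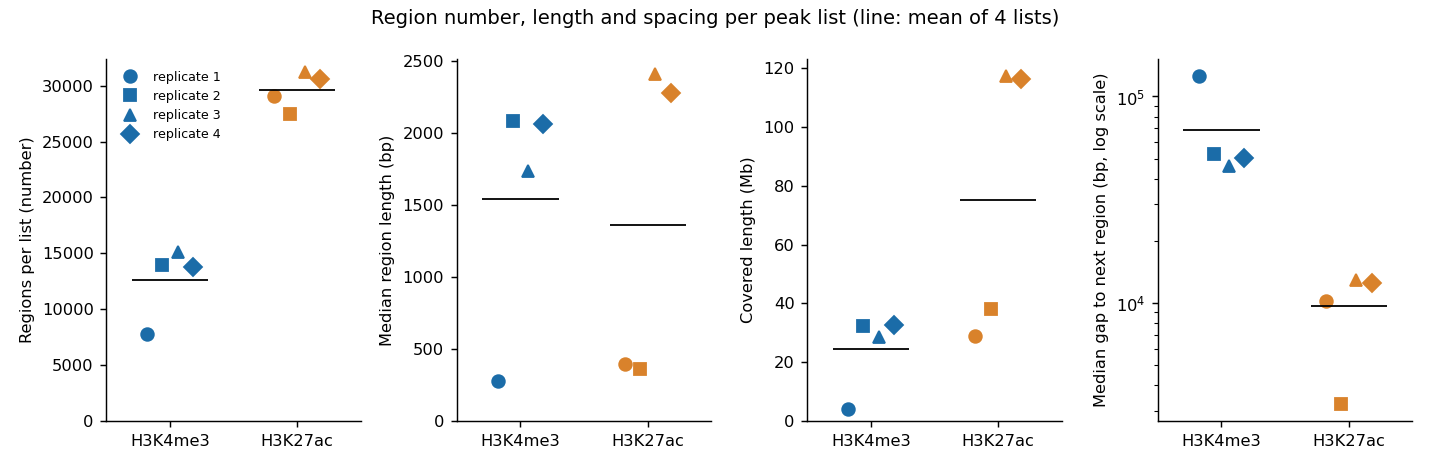
Region number, median region length (bp), covered length (Mb) and median gap to the next region (bp, log axis) per peak list, with 1 symbol per replicate and a line at the mean of 4 lists. Region numbers and gaps do not overlap between marks, while median lengths do: H3K27ac lies at 359 to 392 bp in replicates 1 and 2 and at 2275 to 2407 bp in replicates 3 and 4.

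Typical region length did not separate the marks. Median lengths were 275, 2082, 1736 and 2064 bp in the H3K4me3 lists of replicates 1 to 4, and 392, 359, 2407 and 2275 bp in the H3K27ac lists. H3K4me3 regions were shorter in 10 of 16 pairs of lists, although the log2 difference was positive, at 0.35, with an exact permutation p of 1 (adjusted 1). Its sign changed to -0.32 with gaps of up to 3 kb closed, to -0.48 with mean lengths, to -0.48 with the 10429 best-scored peaks and to -0.37 without replicate 2. It was 0.60 without H3K4me3 replicate 1 and H3K27ac replicate 2.

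The upper tail of length reached furthest in H3K27ac replicates 3 and 4. The 90th percentile of length was 1173.5, 3669.8, 3328 and 4062 bp in the H3K4me3 lists, and 2417, 3567.4, 7740 and 8103.9 bp in the H3K27ac lists. These ranges overlapped, as H3K27ac replicates 1 and 2 lay below H3K4me3 replicates 2 and 4. Regions of 4 kb or more made up 0.336%, 7.32%, 5.48% and 10.5% of H3K4me3 regions and 3.96%, 8.60%, 26.4% and 27.1% of H3K27ac regions. H3K27ac lists held 107, 483, 1951 and 2128 regions of 10 kb or more, which carried 5.01%, 20.0%, 28.2% and 32.1% of the covered bases. H3K4me3 lists held 1, 23, 19 and 47 such regions, with at most 1.87% of the bases. As shares of all regions these were 0.368%, 1.76%, 6.25% and 6.97% for H3K27ac and 0.0129%, 0.165%, 0.125% and 0.342% for H3K4me3. The lowest H3K27ac share, in replicate 1, was close to the highest H3K4me3 share, in replicate 4. The longest single region was 22202 bp for H3K4me3 and 172477 bp for H3K27ac, both in replicate 4.

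Within replicates 2, 3 and 4, H3K4me3 lengths were compact. The interval from the 25th to the 75th percentile was 1590 to 2735.5 bp, 1023 to 2465 bp and 1376.5 to 2975 bp. The same interval for H3K27ac was 1506 to 4166 bp in replicate 3 and 1287 to 4276 bp in replicate 4, wider toward long regions. In H3K27ac replicates 1 and 2 it ran from 183 to 1268 bp and from 175 to 1437 bp.

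**Figure D2:**
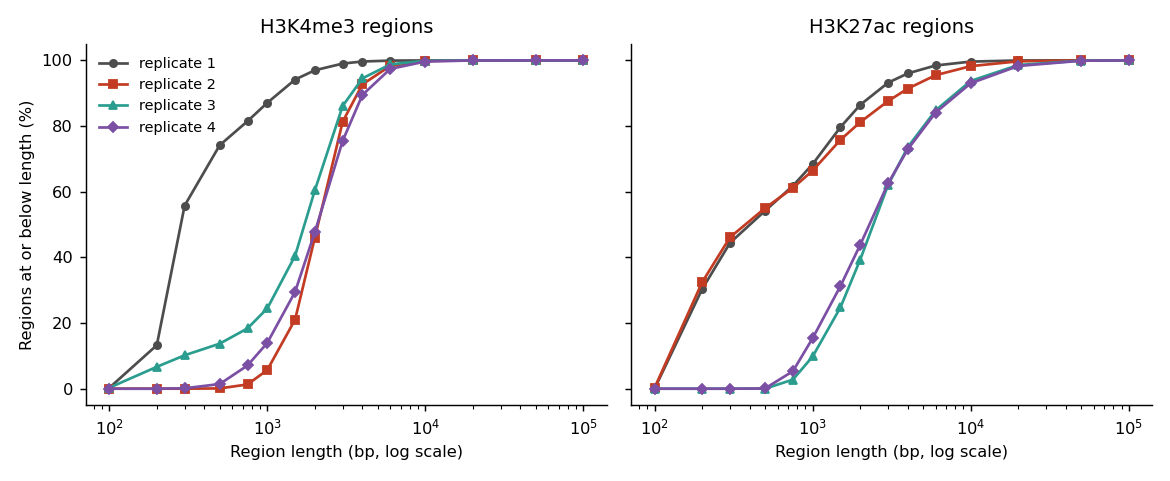
Share of regions at or below each length (bp, log axis) for H3K4me3 on the left and H3K27ac on the right, with 1 line per replicate. H3K4me3 replicate 1 lies left of the other 3, and H3K27ac replicates 1 and 2 lie left of replicates 3 and 4, with medians of 392 and 359 bp against 2407 and 2275 bp.

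Covered length followed number and tail. H3K4me3 regions covered 3.97, 32.4, 28.4 and 32.5 Mb in replicates 1 to 4 (24.3 ± 13.7 Mb, SD, n = 4), and H3K27ac regions covered 29.0, 38.0, 117.4 and 116.3 Mb (75.2 ± 48.3 Mb, SD, n = 4). H3K27ac covered more in 14 of 16 pairs, 3.36-fold in all (log2 difference -1.75), but the exact permutation p was 0.0857 (adjusted 0.114). With no gaps closed, H3K27ac replicates 1 and 2 covered only 19.9 and 22.1 Mb. H3K4me3 replicates 2, 3 and 4 then covered more, at 32.3, 26.4 and 32.0 Mb (exact permutation p 0.286). These H3K27ac lists also lay below those H3K4me3 lists at a score of at least 100 and with the 10429 best-scored peaks. In bulk tissue, fewer cells with a mark and less of the mark per cell cannot be told apart. The log2 difference was -0.52 with the 10429 best-scored peaks and -1.24 without H3K4me3 replicate 1 and H3K27ac replicate 2.

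By tag, the H3K27ac lists differed in length and coverage. The lists tagged MLL were unlike in position, with a Jaccard index of 0.102 with each other, and the label of replicate 2 is in doubt. The split is therefore a description of 4 lists. The lists tagged RAS had medians of 2407 and 2275 bp and covered 117.4 and 116.3 Mb. Those tagged MLL had medians of 392 and 359 bp and covered 29.0 and 38.0 Mb. The smallest single peak moved with this split, at 377 and 305 bp under RAS and 68 and 55 bp under MLL, and its part in the difference was not tested. With the 10429 best-scored peaks per list the H3K27ac medians were 756 and 648 bp under MLL and 4587 and 4735 bp under RAS. The H3K4me3 lists did not divide by tag: under MLL the medians were 275 and 2082 bp, and under RAS they were 1736 and 2064 bp.

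The next question was how often one mark lay on the other. With lists of the same replicate number, 43.3%, 36.3%, 78.4% and 76.0% of H3K4me3 regions in replicates 1 to 4 shared at least 1 bp with H3K27ac. In the opposite direction, 11.3%, 20.5%, 36.3% and 33.4% of H3K27ac regions shared at least 1 bp with H3K4me3. The share was larger for H3K4me3 in 4 of 4 replicates, by 33.1 ± 12.5 percentage points (SD, n = 4). A two-sided exact test that flips the signs of the 4 differences gave p = 0.125, the lowest value it can reach, so it could not pass 0.05 (adjusted over 5 tests, 0.313). At a score of at least 100 replicate 2 turned, with 18.5% of H3K4me3 and 22.4% of H3K27ac regions touched, and the exact sign-flip p was 0.25 there and with at least 50% of a region covered. With the 10429 best-scored peaks the difference was -3.11 points, and in replicates 3 and 4 alone its mean was 42.3 (n = 2).

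Contacts were almost always one to one. Of the H3K4me3 regions touched by H3K27ac, 99.5%, 88.9%, 99.8% and 99.4% met a single H3K27ac region, and of the H3K27ac regions touched, 97.5%, 99.7%, 95.7% and 97.2% met a single H3K4me3 region. The touched regions were thus of like number in both marks, 3351 and 3281 in replicate 1, 5065 and 5652 in replicate 2, 11872 and 11333 in replicate 3, and 10445 and 10191 in replicate 4. The touched counts were thus divided by unequal region numbers, 7746 to 15151 for H3K4me3 and 27504 to 31197 for H3K27ac. Only 83, 17, 486 and 285 H3K27ac regions held 2 or more H3K4me3 regions, and the most in a single one was 7, in replicate 3.

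Lying whole inside the other mark was rarer and less even. In replicates 1 to 4, 22.6%, 0.689%, 48.9% and 27.4% of H3K4me3 regions lay whole inside 1 H3K27ac region. The reverse held for 0.939%, 11.8%, 2.12% and 8.23% of H3K27ac regions. H3K4me3 was the nested mark in replicates 1, 3 and 4, and H3K27ac was the nested mark in replicate 2. The difference was 19.1 ± 23.7 percentage points (SD, n = 4) and had a positive sign in 3 of 4 replicates (exact sign-flip p = 0.25, adjusted 0.417). It was 29.2 points without replicate 2, 9.94 without replicate 3, 12.5 with the H3K27ac lists of the other replicate numbers and 10.9 with the 10429 best-scored peaks. In replicates 3 and 4 alone its mean was 33.0 (n = 2).

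**Figure D3:**
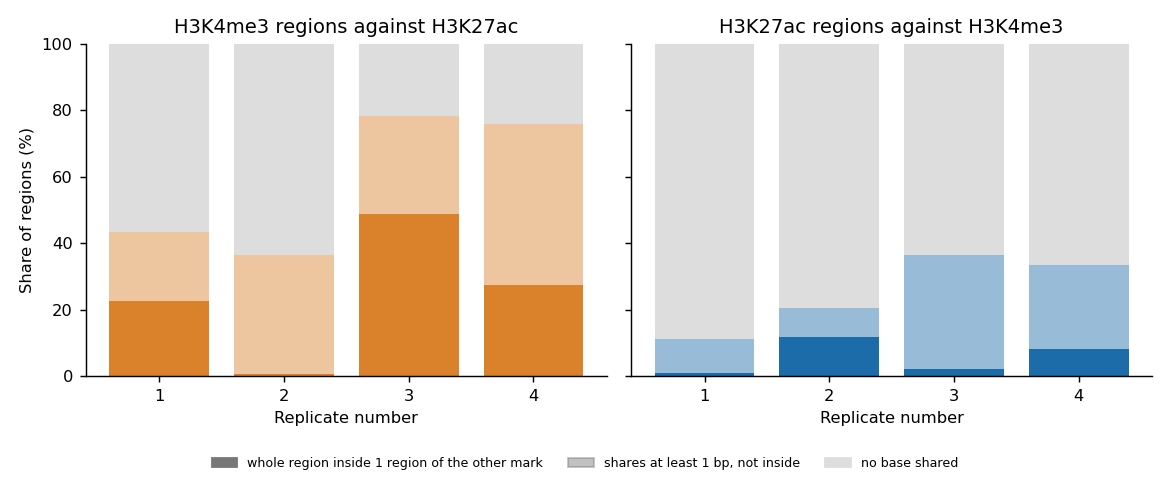
Share of H3K4me3 regions (left) and of H3K27ac regions (right) by their relation to the other mark of the same replicate number, as stacked bars that start at 0. Full colour marks regions whole inside the other mark, pale colour regions that share at least 1 bp without lying inside, and grey those that share none. H3K4me3 regions touched by H3K27ac reach 78.4% and 76.0% in replicates 3 and 4.

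Longer H3K4me3 regions were touched more often. In replicate 3, H3K27ac touched 50.01% of H3K4me3 regions under 1 kb, 80.6% of those of 1 to 2 kb, 93.5% of those of 2 to 4 kb and 95.3% of those of 4 kb or more. In replicate 2 the shares were 7.74%, 17.0%, 50.1% and 76.8% in the same order. Replicates 1 and 4 levelled off, at 75.2%, 77.3% and 76.9% and at 70.2%, 90.4% and 88.0% over the upper 3 classes. H3K4me3 regions of 4 kb or more were thus touched in 76.8% or more of cases in all 4 replicates, although replicate 1 had only 26 of them. A longer region offers more bases to overlap, and no correction for length was made.

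The regions touched were longer in both marks. The median length of touched and untouched H3K4me3 regions was 399 and 255 bp in replicate 1, 2657 and 1821 bp in replicate 2, 1941 and 858 bp in replicate 3, and 2335 and 1258 bp in replicate 4. For H3K27ac the medians were 1383 and 311 bp, 996.5 and 281 bp, 2763 and 2115 bp, and 2520 and 2110 bp. Touched regions had the longer median in all 8 lists.

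H3K27ac regions free of H3K4me3 lay at a median of 55025, 15018, 27384 and 30209 bp from the nearest H3K4me3 region in replicates 1 to 4. Between 15.2% and 38.9% of them lay within 10 kb of one. H3K4me3 regions free of H3K27ac lay at a median of 31930, 36549, 31422 and 33621.5 bp from the nearest H3K27ac region. Most regions of one mark without the other therefore lay well outside the reach of the 1 kb joining.

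The edges of overlapping regions were then compared. For each H3K4me3 region touched by H3K27ac, the overhang at an edge was the distance from the H3K4me3 edge to the outermost H3K27ac edge on that side, negative where H3K27ac stopped short. The median overhang per edge was 338.5, -671, 384 and 87 bp in replicates 1 to 4. H3K27ac ended beyond the H3K4me3 edge at 72.3%, 24.96%, 78.5% and 56.3% of edges. It passed the typical edge in replicates 1, 3 and 4 and stopped short of it in replicate 2. The mean of the 4 medians was 34.6 ± 488.2 bp (SD, n = 4), and the exact sign-flip p was 0.875 (adjusted 0.875). The mean was 269.8 bp without replicate 2, -66.7 bp without replicate 1 and -81.8 bp without replicate 3, so its sign depended on single replicates. In replicates 3 and 4 alone the mean was 235.5 bp (n = 2).

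The spread over edges reached farther outward than inward in replicates 1, 3 and 4, and about as far both ways in replicate 2. The 10th and 90th percentiles were -323.9 and 1838.8 bp in replicate 1, -1905.1 and 2184.2 bp in replicate 2, -265 and 4361 bp in replicate 3, and -774 and 3799.1 bp in replicate 4. The mean overhang lay above the median in all 4 replicates, at 639, 1.41, 1547 and 1184 bp. H3K27ac reached at least 1 kb beyond the edge at 24.1%, 15.0%, 27.6% and 22.9% of edges, and it stopped at least 1 kb short at 34.2% of edges in replicate 2. It reached at least 10 kb beyond at 0.239%, 1.92%, 3.54% and 3.51%. In contrast, 27.5%, 7.72%, 24.4% and 26.6% of edges of both marks lay within 200 bp of each other.

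Both sides of a touched region gave like medians: 346 and 332 bp in replicate 1, -679 and -667 bp in replicate 2, 390 and 377 bp in replicate 3, and 88 and 86 bp in replicate 4, for the lower and the higher coordinate. Single regions were less even. Among the 1753, 96, 7405 and 3774 H3K4me3 regions whole inside H3K27ac, the shorter H3K27ac flank had a median of 333, 643.5, 394 and 457 bp and the longer flank one of 1065, 2761.5, 1230 and 2177 bp. In 47.0%, 54.2%, 48.4% and 56.8% of them the longer flank was at least 3 times the shorter one. Random placement within the host region would give shares close to these, so they are not read as a preferred position of H3K4me3. No test of position was run.

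Every H3K4me3 list was next set against every H3K27ac list, which separates the contribution of each list. Against H3K27ac replicates 1 and 2, the H3K4me3 lists of replicates 2, 3 and 4 gave median overhangs of -421 to -680 bp. Against H3K27ac replicates 3 and 4, the same 3 lists gave 39 to 384 bp. The sign of the overhang thus went with the H3K27ac list for these 3 H3K4me3 lists, and with the tag MLL or RAS of that list. The H3K4me3 list of replicate 1, whose regions were the shortest, gave positive medians against all 4 H3K27ac lists, at 338.5, 310, 1277 and 1122 bp.

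The share of H3K4me3 regions touched followed the H3K27ac list in the same way. H3K27ac replicate 3 touched 60.7%, 79.1%, 78.4% and 79.3% of the H3K4me3 regions of replicates 1 to 4. H3K27ac replicate 2 touched 27.1%, 36.3%, 34.5% and 37.8% of them. H3K27ac replicate 1 touched 63.9%, 60.8% and 63.3% of the H3K4me3 regions of replicates 2, 3 and 4, well above the 43.3% with the list of its own number. The H3K4me3 list of replicate 1 was likewise touched more often by H3K27ac replicates 3 and 4, at 60.7% and 58.2%, than by replicate 1.

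**Figure D4:**
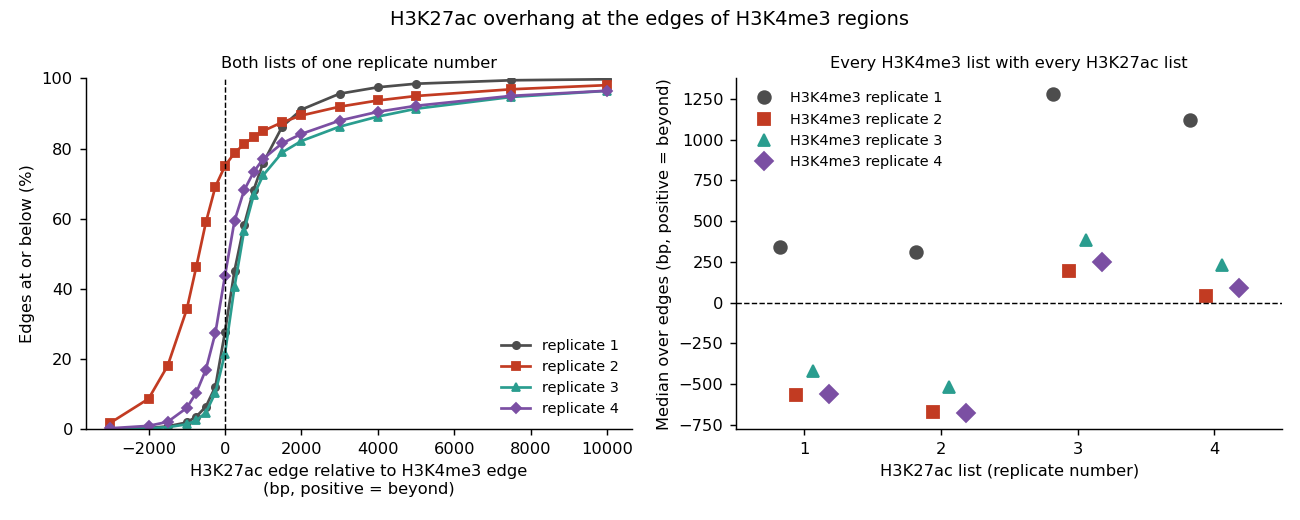
Left, the share of edges of touched H3K4me3 regions at or below each H3K27ac overhang (bp, positive means H3K27ac reaches beyond), with 1 line per replicate number. Right, the median overhang for each of the 16 pairs of lists, with the H3K27ac list on the horizontal axis and a symbol per H3K4me3 list; medians lie below 0 for H3K27ac replicates 1 and 2 and above 0 for replicates 3 and 4, except with H3K4me3 replicate 1.

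A fixed set of H3K4me3 regions gave the same picture. Bases in at least 3 of the 4 H3K4me3 lists formed 12337 shared regions with a median length of 1746 bp, covering 23.6 Mb. H3K27ac replicates 1 to 4 touched 68.2%, 38.5%, 85.0% and 80.9% of them and enclosed 5.00%, 1.15%, 56.6% and 40.1%. The median overhang was -389, -507.5, 386 and 224 bp, below 0 for the lists tagged MLL and above 0 for those tagged RAS. The mean of these 4 values was -71.6 bp, against 34.6 bp with each replicate's own H3K4me3 regions. The size of overhang of single regions was alike between H3K27ac replicates 3 and 4, with a Spearman rho of 0.835 across the 4359 shared regions touched by all 4 lists. It was 0.490 and 0.470 between replicate 1 and these, and 0.0868 to 0.133 between replicate 2 and the other 3. Regions are not independent replicates, and they share the H3K4me3 edges, so these values are descriptive.

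Of the 12337 shared H3K4me3 regions, 35.3% were touched by H3K27ac in all 4 lists, 32.5% in 3, 13.6% in 2, 6.61% in 1 and 12.0% in none. Their median lengths, in order from none to all 4 lists, were 1016, 1255, 1421.5, 1686 and 2339 bp. Each further list with H3K27ac thus went with a longer median.

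Other marks of the same replicate number were read on the bases of each kind. H3K4me1, the enhancer-associated mark, covered 3.32%, 23.8%, 17.8% and 15.5% of the bases in both H3K4me3 and H3K27ac in replicates 1 to 4. On the H3K27ac overhang, the bases of touched H3K27ac regions outside H3K4me3, it covered 13.4%, 32.5%, 35.8% and 43.8%. It was higher on the overhang in 4 of 4 replicates, by 16.3 ± 9.0 percentage points (SD, n = 4). The exact sign-flip p was again at its floor of 0.125 (adjusted 0.313). With gaps of up to 3 kb closed it was 0.25. In replicates 3 and 4 alone the mean difference was 23.1 points (n = 2). The bases of touched H3K4me3 regions beyond H3K27ac had 10.3%, 12.9%, 35.4% and 18.5% under H3K4me1, above the bases in both marks in replicates 1, 3 and 4. Higher coverage was therefore not particular to the H3K27ac overhang. H3K27ac regions without any H3K4me3 had 15.3%, 17.4%, 27.2% and 35.5% of their bases under H3K4me1, and H3K4me3 regions without H3K27ac had 7.30%, 12.1%, 13.7% and 7.37%.

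H3K79me2, the mark of transcribed genes, covered 81.1%, 80.7%, 44.7% and 41.8% of the bases in both marks and 66.5%, 91.8%, 39.9% and 39.9% of the overhang. The difference, overhang minus shared bases, was -2.51 ± 10.6 points (SD, n = 4), negative in replicates 1, 3 and 4 and positive in replicate 2, with an exact sign-flip p of 0.625 (adjusted 0.781). It was 1.52 points without replicate 1, -7.07 without replicate 2, -5.83 with the 10429 best-scored peaks and -1.03 with no gaps closed. On H3K27ac regions without H3K4me3 the coverage was 38.4%, 81.3%, 22.8% and 20.1%. Only in replicate 2 was it as high there as on the bases of both marks, and this is the H3K27ac list whose label is in doubt. H3K4me3 regions without H3K27ac were low in every replicate, at 27.8%, 20.6%, 2.99% and 5.22%.

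Polycomb peaks were more frequent on H3K4me3 regions that lacked H3K27ac. H3K27me3, the Polycomb mark, covered 9.52%, 8.34%, 62.6% and 24.7% of the bases of these regions in replicates 1 to 4, and 0.153%, 0.0669%, 3.75% and 0.493% of the bases in both marks. The H3K27me3 list of replicate 3 was the highest of the 4 on every kind of bases read. Counted by region, 9.51%, 15.1%, 57.2% and 32.1% of H3K4me3 regions without H3K27ac held an H3K27me3 peak, against 0.358%, 0.573%, 6.15% and 1.83% of those with H3K27ac. The share was higher without H3K27ac in 4 of 4 replicates, and no test was run on it. H3K9me3, a heterochromatin mark, covered 6.20%, 1.67%, 9.75% and 23.5% of the bases of H3K4me3 regions without H3K27ac, and 0.105%, 1.75%, 0.0409% and 0.934% of the bases in both marks. By bases it was higher without H3K27ac in replicates 1, 3 and 4 and not in replicate 2. By region, 5.55%, 2.84%, 10.9% and 24.4% of H3K4me3 regions without H3K27ac held an H3K9me3 peak, against 0.119%, 2.51%, 0.253% and 4.73% of those with it, so the share was higher without H3K27ac in 4 of 4 replicates. H3K27me3 and H3K9me3 each covered under 3% of the H3K27ac overhang in every replicate.

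**Figure D5:**
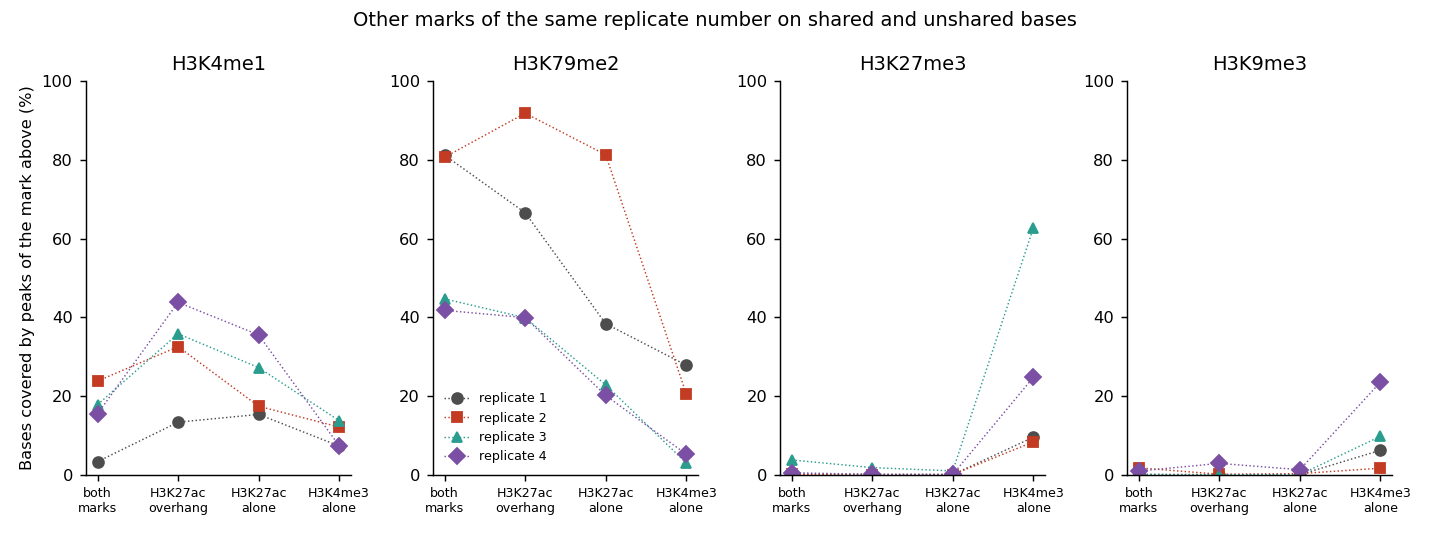
Share of bases (%) covered by peaks of H3K4me1, H3K79me2, H3K27me3 and H3K9me3 on bases in both marks, on the H3K27ac overhang, on H3K27ac regions without H3K4me3 and on H3K4me3 regions without H3K27ac, with 1 symbol per replicate. H3K4me1 is higher on the overhang than on bases of both marks in all 4 replicates, and H3K27me3 is highest on H3K4me3 regions without H3K27ac, up to 62.6%.

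Single regions show the forms behind these values. Positions are in mm9, the build named in the submitters' processing notes, and no gene annotation of that build was used here, so genes, exons and the tissue's marker genes are not named. The regions were picked by size, and their values are a description. The longest shared H3K4me3 region lay on chromosome 12 from 57620278 to 57639456, over 19179 bp. H3K27ac reached a summed overhang of both edges of -1617, 4636, 14112 and 14102 bp there in replicates 1 to 4. It also held H3K79me2 in 4 of 4 lists and H3K27me3 in 3 of 4. The next, on chromosome 14 from 22801223 to 22815024, had summed overhangs of -722, -1609, 1775 and 1974 bp over 13802 bp. H3K27ac covered 55.7%, 47.7%, 100% and 96.3% of it, and H3K27me3 was present there in 0 of 4 lists. The third lay on chromosome 8 from 94877373 to 94890196, with summed overhangs of -1060, -3012, 5232 and 731 bp, and held H3K27me3 in 4 of 4 lists.

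In replicates 3 and 4 the largest overhangs were far longer on one side than on the other. On chromosome 2 from 152651161 to 152657499, the overhang at the lower edge was -628, 45933, 71785 and 69569 bp in replicates 1 to 4. At the higher edge the 4 overhangs were only -262, -334, 452 and 175 bp. On chromosome 6 from 31062389 to 31065318, an H3K4me3 region of 2930 bp had overhangs of -461, 22809, 53735 and 52841 bp at the lower edge and 2574, 13510, 2882 and 2703 bp at the higher edge. H3K27ac thus reached far on both sides there in replicate 2. On chromosome 11 from 86395819 to 86400606 the longer flank was at the higher edge in replicates 1, 3 and 4, with 13602, -362, 51271 and 51356 bp, against 8376, 5038, 14491 and 13999 bp at the lower edge. All 3 held H3K79me2 in 3 or 4 lists and no H3K27me3 in any. Over the 4237 shared regions of at least 1 kb with H3K27ac in all 4 lists, the median summed overhang was 279 bp.

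The 3 regions with the smallest summed overhang were picked for that value, which by its definition favours long H3K4me3 regions with little H3K27ac. On chromosome 1 from 186551501 to 186557987, H3K27ac covered 17.4%, 2.62%, 70.4% and 18.6% of 6487 bp, with summed overhangs of -3890, -6317, -526 and -5280 bp. H3K27me3 was present there in 3 of 4 lists, in 0 at the chromosome 10 region and in 2 at the chromosome 15 region. On chromosome 10 from 21712656 to 21719534, H3K27ac stopped short of the higher edge by values of -4604, -5315, -2524 and -4500 bp, alike in sign in all 4 lists. On chromosome 15 from 7759739 to 7765135 the replicates differed, with -4657, -5148, -3365 and 3483 bp, and H3K27ac of replicate 4 covered 100% of the region.

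The 3 longest shared H3K4me3 regions without H3K27ac in any list were 6347, 5046 and 4629 bp long. They lay on chromosome 14 from 84842437 to 84848783, chromosome 6 from 84534691 to 84539736 and chromosome 14 from 70474324 to 70478952. All 3 held H3K4me1 in 4 of 4 lists and H3K27me3 in 3, 4 and 4 lists. H3K79me2 was present in 2, 0 and 0 lists and H3K9me3 in 1, 0 and 0. Of the 10426 shared H3K4me3 regions of at least 1 kb, 757 had no H3K27ac in any list.

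The 3 longest shared H3K27ac regions without H3K4me3 in any list were far longer. They covered 36596 bp on chromosome 8 from 129346827 to 129383422, 26541 bp on chromosome 7 from 87197776 to 87224316 and 20533 bp on chromosome 14 from 41731294 to 41751826. H3K4me1 was present in 4 of 4 lists at each, and H3K27me3 in none. H3K79me2 was present in 1, 3 and 3 lists, and H3K9me3 in 1 list at each. Regions this long more readily meet a peak of another mark, and no share over all such regions is given. Of the 9779 shared H3K27ac regions of at least 1 kb, 4419 had no H3K4me3 in any list.

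The number of H3K27ac regions per H3K4me3 region was also taken by chromosome. It ran from 3.35 to 4.27 in replicate 1, from 1.45 to 2.49 in replicate 2, from 1.72 to 2.59 in replicate 3 and from 1.86 to 2.64 in replicate 4. The median over replicates ran from 1.83 on chromosome 7 to 2.59 on chromosome 16. The median share of H3K4me3 regions touched by H3K27ac ran from 50.8% on chromosome 13 to 65.3% on chromosome 19.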

How the data were processed

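Each library of a histone mark had 1 deposited peak list that gives the position and a score of every peak. Per the submitters' processing notes, CASAVA 1.7, Bowtie, MACS and deepTools were used and the build was mm9; settings are not given in the sources used here. The score in the deposited lists is the authors' own value per peak, with a smallest value of 50 to 50.04 in these 8 lists, and was used only to filter peaks. The other values used are the deposited peak starts and ends, in bp.

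Peaks on chromosomes 1 to 19 were joined across gaps of up to 1000 bp with Python 3.11.15 and numpy 2.4.6, and overlap meant at least 1 bp. Region number, median length, covered length and median spacing were compared between marks by an exact two-sided permutation test of log2 values over 70 splits. Overlap, nesting, overhang and coverage by H3K4me1 and H3K79me2 were compared over 4 replicate numbers with a two-sided exact test that flips signs. Benjamini-Hochberg adjustment covered 4 and 5 tests. The steps were tested on simulated regions, where 9 of 9 quantities were recovered. Alternatives were other gap limits, a score of at least 100, equal numbers of best-scored peaks, means, stricter overlap, other pairings and leaving out replicates.

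Regions were named by size: the 3 longest shared H3K4me3 regions, the 3 with the largest and smallest summed overhang, and the 3 longest shared regions of each mark without the other. The mark pair and these rules were chosen with earlier results of these data known. Planned comparisons at gene start sites were not run, since the gene table at hand is of GRCm38 and not mm9, and no sequence is printed for the same reason.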

Additional observations from a re-analysis of the deposited data

Results flagged for a closer look

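Of 36 groups of 4 lists examined, 6 had a library farther from the others than Dixon's 95% critical value allows. Chance gives about 1 in 20 groups, and the 6 groups share libraries. H3K4me3 replicate 1 was low in covered length, at 3.97 Mb against 28.4 to 32.5 Mb, and high in median spacing, at 126235 bp against 46203.5 to 52859.5 bp.

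The H3K27me3 list of replicate 3 covered more of all 5 kinds of bases than those of the other replicates, and lay past the critical value in 3. It covered 3.75% of the bases in both marks (others 0.0669% to 0.493%), 1.81% of the H3K27ac overhang (others 0.0172% to 0.105%) and 0.970% of H3K27ac regions without H3K4me3 (others 0.0305% to 0.0686%). It also covered 12.7% of H3K4me3 beyond H3K27ac and 62.6% of H3K4me3 regions without H3K27ac. The H3K9me3 list of replicate 4 covered 2.88% of the H3K27ac overhang, against 0% to 0.128% in the others.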

How the results depend on the processing

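Of 96 alternative values for the 9 tested results, 85 kept the direction and 11 reversed it, and none passed an adjusted 0.05. Many of these designs cannot pass it, so this says nothing about stability. Among the 85 are values with the replicate number as a block and values without pairing. These equal the main values by construction and could not reverse. Covered length, spacing, nesting and the H3K4me1 difference kept their direction throughout. With the 10429 best-scored peaks the differences were 0.22 (region number, log2), -0.48 (median length, log2) and -3.11 percentage points (overlap). Median length was -0.32 with gaps of up to 3 kb closed, -0.48 with means and -0.37 to 0.64 on leaving out 1 replicate number. Overhang was 842.9 bp with means, 102.6 bp with gaps of up to 3 kb closed and 82.9 bp with no gaps closed. It was -25.8 bp at a score of at least 100 and -71.6 bp on shared H3K4me3 regions. On leaving out 1 number, overhang was -81.8 to 269.8 bp and the H3K79me2 difference -7.07 to 1.52 points. With the replicate number as a block the log2 differences stay -1.27, 0.35, -1.75 and 2.88 by construction, with exact sign-flip p of 0.125, 1, 0.125 and 0.125. In 10 kb bins, deviations of same-numbered libraries correlated at 0.134, -0.0749, 0.228 and 0.0913, and not every library correlated best with its own number, so the numbers are not shown to pair the libraries. The 5 results between marks nevertheless set lists of 1 number against each other; with lists of the other numbers, overlap was 33.4 points, nesting 12.5 points and overhang 55.7 bp. Without pairing, the exact permutation p was 0.0571 for overlap and 0.143 for nesting. Leaving out H3K4me3 replicate 1 and H3K27ac replicate 2, chosen after seeing the data, reversed none of the 9; for the 5 results between marks it leaves replicates 3 and 4 only. Start-site comparisons were not run. The cause of these reversals was not tested. Depth is unknown, and its bearing on region numbers was not tested.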
